A study of Homo sapiens with 4 samples.

Results

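The genes described here are 45 human genes of the lysosome, taken from a list of symbols chosen by function: 24 lysosomal enzymes and their cofactors, 6 membrane proteins, 14 proton pump subunits and the transcription factor TFEB. Each of the 45 symbols was found, through its Ensembl identifier, among the 62443 genes of the expression table. Of these members, 36 had a mean of at least 1 FPKM (fragments per kilobase of transcript, scaled by library size) over the 4 libraries and were tested, and 9 were below that level.

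RNA was sequenced from HGC-27, an established human gastric cancer cell line, in 2 libraries of cells that received the peptide GLUP at 10 μg/ml and 2 control libraries. GLUP is a peptide built from the part of VGLL4 that binds TEAD4, a DNA-binding factor of the Hippo pathway, and was designed to join TEAD4 molecules to each other. The study's text gives the exposure as 12 h where it describes the experiment and as 48 h in its methods, and the control as the buffer of the peptide stock, whereas the sample labels record no treatment for the control. All libraries came from the same line grown in medium with fetal bovine serum, and the methods speak of at least duplicate biological samples without saying how the cultures were kept apart.

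Lysosomes are acidic organelles in which hydrolases break down proteins, glycans and lipids delivered by endocytosis and autophagy. The V-ATPase proton pump acidifies the lumen: its cytosolic V1 sector hydrolyses ATP and its membrane V0 sector carries the protons across. TFEB and related factors bind the CLEAR motif upstream of many lysosomal genes, and many of these genes are mutated in inherited storage diseases.

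The CLEAR motif is printed first because it is the sequence feature known to join these genes. RefSeq promoter windows on GRCh38.p14, each from 250 bases before to 50 after a gene start, were given for 33 members in 47 windows. The letters TCACGTGA, sought on both strands, were in 6 of the 47 member windows (12.8%) and in 0.98% of all 35116 windows. The 6 genes were the pump subunits ATP6V1G1 and ATP6V0D1, the membrane glycoprotein LAMP1, the calcium channel MCOLN1, the protease CTSA and the alpha-glucosidase GAA. The stretches run 5′ to 3′ on the gene's strand, from 30 bases before the first motif to 30 bases after the last one printed or, where that comes sooner, to the base before the gene start, with the motif in capitals. They lie at chr9:114587680-114587747 (plus strand) for ATP6V1G1, chr16:67481180-67481247 (minus) for ATP6V0D1, chr13:113297180-113297238 (plus) for LAMP1, chr19:7522552-7522623 (plus) for MCOLN1, chr20:45891279-45891334 (plus) for CTSA and chr17:80101474-80101580 (plus) for GAA.
ATP6V1G1: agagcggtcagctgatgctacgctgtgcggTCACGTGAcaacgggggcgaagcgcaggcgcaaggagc
ATP6V0D1: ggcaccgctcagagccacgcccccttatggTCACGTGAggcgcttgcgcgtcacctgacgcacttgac
LAMP1: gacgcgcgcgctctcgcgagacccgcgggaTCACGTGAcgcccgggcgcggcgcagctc
MCOLN1: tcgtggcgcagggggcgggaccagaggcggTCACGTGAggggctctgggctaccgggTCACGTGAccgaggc
CTSA: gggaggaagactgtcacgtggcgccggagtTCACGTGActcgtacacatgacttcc
GAA: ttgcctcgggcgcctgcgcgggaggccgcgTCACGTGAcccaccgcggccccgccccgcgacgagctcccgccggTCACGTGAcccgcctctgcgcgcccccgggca

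MCOLN1, GAA and LAMP1 each held the motif at 2 places, and the second of LAMP1 crosses the gene start and is not printed. The shorter E-box CACGTG, which every CLEAR match contains, was in 10 of the 47 member windows (21.3%) against 7.26% of all windows, and added ATP6V0B, CD63, CTSD and NEU1. The 6 genes with the CLEAR letters did not share a direction: both GLUP libraries were above both control libraries for CTSA, GAA and MCOLN1 and below them for ATP6V1G1 and LAMP1, and the groups overlapped for ATP6V0D1. A match of letters is a description and not a bound site.

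The letters GGAATG, the short motif that TEAD factors bind, were sought on both strands because GLUP was built to act on TEAD4. They were in 7 of the 47 member windows (14.9%) and in 14% of all windows, and the 5 genes were ATP6V1F, CD63, GRN, MAN2B1 and NPC2. The 250 bases upstream of NPC2 and GRN, which differed in opposite directions, are printed at chr14:74493513-74493762 (minus strand) and chr17:44345052-44345301 (plus), with the motif in capitals. In GRN it reads CATTCC, its reverse complement.
NPC2: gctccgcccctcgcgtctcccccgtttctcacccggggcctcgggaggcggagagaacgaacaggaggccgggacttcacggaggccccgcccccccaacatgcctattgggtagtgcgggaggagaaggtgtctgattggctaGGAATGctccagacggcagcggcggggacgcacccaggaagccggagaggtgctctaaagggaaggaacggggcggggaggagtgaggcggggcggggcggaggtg
GRN: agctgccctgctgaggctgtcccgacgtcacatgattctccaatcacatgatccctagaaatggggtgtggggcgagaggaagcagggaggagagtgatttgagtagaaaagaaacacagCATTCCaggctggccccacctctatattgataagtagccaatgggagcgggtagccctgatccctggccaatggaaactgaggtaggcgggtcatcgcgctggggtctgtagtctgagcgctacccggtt

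The level of a member is its FPKM, which is scaled by transcript length. Genes are ordered on this scale, but FPKM still went down with length, as given at the end of this paragraph. The part of length in the order was not tested. The deposited values sum to between 909735 and 949919 per library, and no counts were used here, so the sequencing depth behind a value is unknown. The highest members over the 4 libraries were CD63 (mean 454 FPKM), ATP6V0E1 (453), ATP6V0B (364), ATP6V1F (166), NPC2 (141) and ATP6V1G1 (119). At the other end, CTSZ, CTSH, TFEB, SGSH, MAN2B1 and LAMP1 had means under 0.25 FPKM, with CTSZ listed at 0 in 3 libraries. CD63 and ATP6V0E1, first and second in this order, had overlapping ranges over the 4 libraries (158 to 682 and 315 to 645 FPKM). Their order differed by group. In control, CD63 (377 and 158 FPKM) was below ATP6V0E1 (513 and 645). In GLUP, CD63 (682 and 599) was above ATP6V0E1 (315 and 339). Across the 45 members, mean FPKM went down with the length of the longest transcript (Spearman rho -0.48, all points sharing the same 4 libraries), and over 7570 tested genes rho was -0.25.

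**Figure D1:**
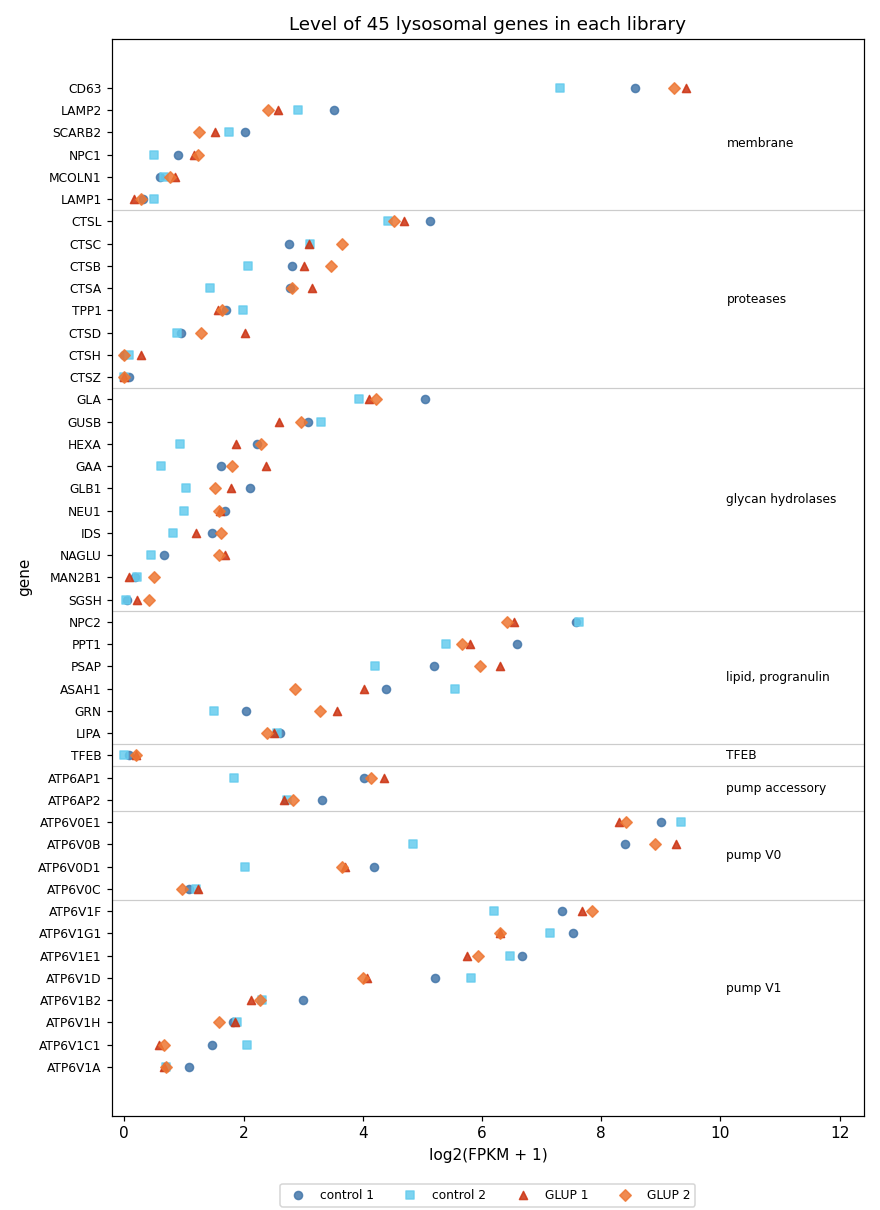
Level of each of the 45 genes in each library, as log2(FPKM + 1) on the horizontal axis, with genes grouped by role. Points are single libraries (control 1 and 2 in blue, GLUP 1 and 2 in red and orange), and the light blue squares of control 2 lie far to the left for ATP6V0B and ATP6AP1.

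The libraries were checked before the members were compared. Control 1 and 2 correlated less with each other over the genes tested (Pearson r = 0.933) than GLUP 1 and 2 (r = 0.986). Control 2 was the lowest of the 4 libraries for 19 of the 36 members tested (52.8%), against 31.3% of all genes tested, and control 1 was lowest for 1 member (2.78%, against 7.34%). Leaving out control 1 and leaving out control 2 gave opposite signs for 10 of the 36 members tested. Such a change can arise only where the groups overlap in the full comparison, as they did for these 10. The members called further below had no overlap, so it could not arise for them. Of 10 epithelial markers, 5 had a mean of at least 1 FPKM (KRT7, KRT8, KRT18, KRT19 and MUC1), while CDH1 and EPCAM were at or below 0.124 and TFF1 was listed at 0, and the list summed to 10.9 to 11.9 FPKM in control and 12.2 to 13.3 in GLUP. Of 4 mesenchymal markers, VIM was at 293 to 387 FPKM, with overlapping groups, and CDH2 at or below 0.0508. ZEB1 was at 7.05 and 19.2 FPKM in control and 2.88 and 2.92 in GLUP. FN1 was at 1.15 and 3.25 in control and 0.655 and 0.671 in GLUP. The list summed to 344 to 410 in control, mostly VIM, and 297 to 340 in GLUP. The 9 leukocyte and macrophage markers summed to 0.289 to 0.330 FPKM in control and 0.133 to 0.215 in GLUP, with 5 of them listed at 0 in every library. The 6 fibroblast markers summed to 119.7 to 125 and 119 to 123, and 3 erythroid markers to 3.04 to 6.69 and 10.7 to 17.6. The erythroid sum was nearly all HBA1 (6.69 and 3.04 in control, 10.7 and 17.5 in GLUP), with HBB at 0. The part of these markers in the results below was not tested.

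GLUP was compared with control to ask which lysosomal genes differ in level after the peptide. Members were on both sides: with a fold change over 2 and an unadjusted p under 0.05, the progranulin gene GRN, the sphingolipid cofactor PSAP, the tetraspanin CD63 and the heparan sulfate enzyme NAGLU were higher, and the ceramidase ASAH1, the cholesterol carrier NPC2 and the V1 subunits ATP6V1D, ATP6V1C1 and ATP6V1G1 were lower. These 5 lower members are 13.9% of the 36 tested, where 14.5% of the 7588 genes tested met the same rule, and the 4 higher members are 11.1%, where 4.67% of genes did. Such genes are named "called" here. No member had a limma adjusted p under 0.05 after Benjamini-Hochberg adjustment over all genes (range 0.10 to 0.905), 10 had an unadjusted p under 0.05, and 0.0264% of all genes, 2 in number, passed the adjusted threshold. In RNA from a whole culture, fewer cells with a transcript and less of it per cell cannot be told apart.

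Both GLUP libraries were below both control libraries for 13 of the 36 members, where 49.7% of all genes tested were, and above them for 11, where 17.5% were, and the groups overlapped for the other 12. The median log2 fold change (GLUP minus control, on the log2(FPKM + 1) scale) was -0.09 over these members and -0.36 over all genes tested, a difference of 0.27. NAGLU and CTSD reached the level for testing through GLUP alone and ATP6V1C1 through control alone, so these counts describe the genes tested and not the 45. With every gene above 0 in any library fitted, 4 of the 45 were lower (3.60% of 28873 genes) and 4 higher (0.880%), ASAH1 being the member no longer called.

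The split moved with the scaling. After centring each library on its median, 1 member was lower and 10 higher (428 and 796 genes, 5.64% and 10.5%), and after quantile normalization 1 and 8 (486 and 673 genes, 6.40% and 8.87%). With the trend on GC content removed, 0 members were lower, where 347 genes (4.57%) were, and 4 were higher, where 355 (4.68%) were: CD63, GRN, PSAP and the protease CTSC. Without control 1, 4 members were lower and 12 higher (23.0% and 12.9% of genes), and without control 2, 4 were lower and GRN alone was higher (12.5% and 2.17%). Without GLUP 1, ASAH1 was lower and GRN and NAGLU higher (5.76% and 1.98% of genes), and without GLUP 2, ATP6V1C1 was lower and GRN, NAGLU, ATP6V0B, CTSD and GAA higher (5.82% and 3.19%).

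**Figure D2:**
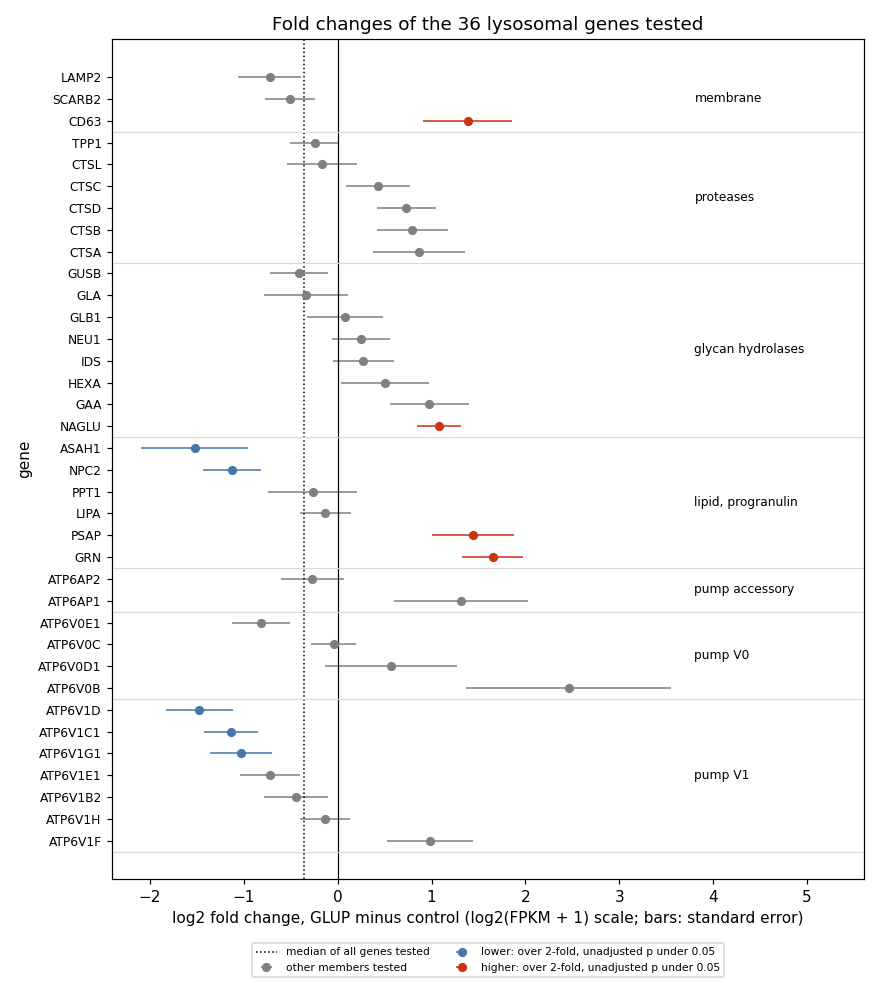
Log2 fold change (GLUP minus control, log2(FPKM + 1) scale) of the 36 genes tested, by role, with bars of 1 standard error from limma. The dotted line is the median of all genes tested (-0.36), and the 5 blue and 4 red points are over 2-fold with an unadjusted p under 0.05.

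Of the 6 membrane proteins, 3 were tested and CD63 alone was called. CD63, a tetraspanin of late endosomes and lysosomes on GRCh37 chr12:56119107-56123491, was at 377 and 158 FPKM in control and 682 and 599 in GLUP. The groups did not overlap, and the 2 control libraries stood further apart than the GLUP libraries. The log2 fold change was 1.39 (SE 0.47, limma adjusted p = 0.125), and 1.19 with the GC trend removed. It was called without control 1 (2.01), and it was 0.76 without control 2, 1.29 without GLUP 1 and 1.48 without GLUP 2, not called in any of these. LAMP2, a glycoprotein that lines the membrane and serves chaperone-mediated autophagy, and SCARB2, the receptor that brings beta-glucocerebrosidase to the lysosome, were below control in both GLUP libraries, with log2 fold changes of -0.72 (SE 0.33) and -0.51 (SE 0.27), neither of them called. With the GC trend removed these became 0.11 and 0.13, and LAMP2 was called at -1.03 without control 2 and was -0.42 without control 1.

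The other 3 membrane proteins were under the level for testing. The calcium channel gene MCOLN1, a known target of TFEB, was at 0.507 and 0.592 FPKM in control and 0.806 and 0.704 in GLUP. NPC1, which hands cholesterol out of the lysosome, was at 0.869 and 0.416 against 1.26 and 1.37 FPKM. LAMP1, often the most abundant lysosomal membrane glycoprotein at the protein level, was at 0.247 and 0.412 against 0.123 and 0.211. MCOLN1 and NPC1 were thus above control in both GLUP libraries and LAMP1 below, all at levels where no test was made. MCOLN1 shares exonic sequence with PNPLA6 on the same strand and NPC1 shares some with RMC1, and the strand setting of the authors' counting is not given in the sources used here.

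None of the 8 proteases was called, and 6 were tested. Both GLUP libraries were above both control libraries for 3 of them: CTSA, which also protects neuraminidase, with a log2 fold change of 0.87 (SE 0.49), the cysteine protease CTSB with 0.79 (SE 0.38) and the aspartic protease CTSD with 0.73 (SE 0.32). Control 2 was the lowest library for each. Without control 1, CTSA (1.54) and CTSB (1.16) were called, and without control 2 they were 0.20 and 0.42. CTSD was called without GLUP 2 (1.10) and was 0.36 without GLUP 1. CTSL, the protease with the highest level (mean 25.3 FPKM), and CTSC, which activates granule proteases, had overlapping groups, and TPP1, a tripeptidyl peptidase, was slightly lower in both GLUP libraries (-0.24, SE 0.26). CTSH was at most 0.221 FPKM and CTSZ at most 0.0512. CTSA, at 5.90 and 1.72 FPKM in control and 7.90 and 6.01 in GLUP, shares exonic sequence with PLTP on the opposite strand. PLTP was at 4.50 and 1.62 FPKM in control and 7.13 and 6.22 in GLUP, and its part in the value of CTSA was not tested.

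NAGLU was the called gene among 10 hydrolases of glycans and glycosaminoglycans, of which 8 were tested. NAGLU, on GRCh37 chr17:40688259-40696467, encodes the alpha-N-acetylglucosaminidase of heparan sulfate and was at 0.595 and 0.369 FPKM in control and 2.23 and 2.02 in GLUP. The groups were well apart, at levels near the threshold for testing. Its log2 fold change was 1.08 (SE 0.23, limma adjusted p = 0.10), the ratio of the group means without a pseudocount was 4.40, and the value was 0.50 with the GC trend removed and 0.97 without control 2, not called in either. GAA, the alpha-glucosidase that degrades glycogen, was also above control in both GLUP libraries, with a log2 fold change of 0.98 (SE 0.42), called without control 1 (1.48) and without GLUP 2 (1.26), against 0.47 without control 2 and 0.69 without GLUP 1, and GUSB, the beta-glucuronidase, was below in both (-0.41, SE 0.31).

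The other 5 tested hydrolases had overlapping groups, with log2 fold changes of -0.34 for the alpha-galactosidase GLA, 0.08 for the beta-galactosidase GLB1, 0.25 for the sialidase NEU1, 0.27 for the iduronate sulfatase IDS and 0.51 for the hexosaminidase subunit HEXA, which was called without control 1 (1.15) and had the opposite sign without control 2 (-0.14). SGSH, the sulfamidase of the heparan sulfate route, was at 0.0291 and 0.0248 FPKM in control and 0.155 and 0.340 in GLUP, untested. MAN2B1, the lysosomal alpha-mannosidase, was at most 0.410 FPKM with overlapping groups. It shares exonic sequence with a protein-coding gene on the same strand, at 9.71 and 1.63 FPKM in control and 20.7 and 14.5 in GLUP. The part of that gene in the low value of MAN2B1 was not tested. GUSB has expressed pseudogenes, of which GUSBP1 had a mean of 4.0 FPKM, and GLA overlaps RPL36A on the opposite strand, so their values may hold reads of those genes.

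The list of lipid hydrolases, their cofactors and progranulin had 6 genes, all tested, and held 4 of the 9 called members. Of the 6, 2 were lower (33.3%, against 14.5% of all genes tested) and 2 higher (33.3%, against 4.67%). GRN, on GRCh37 chr17:42422614-42430474, encodes progranulin, which is cut into granulins in the lysosome, and was at 3.10 and 1.85 FPKM in control and 10.8 and 8.77 in GLUP. Each GLUP library was above each control library by a margin larger than the spread within either group. The log2 fold change was 1.65 (SE 0.32, limma adjusted p = 0.10), 1.11 with the GC trend removed, and 1.91 and 1.39 without control 1 and control 2. Among the members, GRN alone was called under every alternative run.

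PSAP, on GRCh37 chr10:73576055-73611008, encodes prosaposin, the precursor of the saposins, which help hydrolases reach sphingolipids, and was at 35.6 and 17.5 FPKM in control and 78.1 and 61.7 in GLUP. Both GLUP libraries were above both control libraries, with control 2 the lowest. Its log2 fold change was 1.44 (SE 0.44, limma adjusted p = 0.111), and 1.28 with the GC trend removed. Without control 1 it was called at 1.93, and without control 2 it was 0.94, without GLUP 1 1.27 and without GLUP 2 1.61, not called in any of these. GRN and PSAP, whose proteins bind each other, were thus on the same side.

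NPC2, on GRCh37 chr14:74942895-74960880, encodes the soluble carrier that passes cholesterol to NPC1, and was at 190.0 and 197 FPKM in control and 91.7 and 85 in GLUP. Replicates lay close together in both groups (194 ± 5.06 and 88.3 ± 4.72 FPKM, SD, n = 2 each), and the groups did not overlap. The log2 fold change was -1.12 (SE 0.31, limma adjusted p = 0.103), and -0.60 with the GC trend removed, where it was not called. Nor was it called after centring (-0.78), after quantile normalization (-0.91), without GLUP 1 (-1.18) or without GLUP 2 (-1.07). ISCA2, which overlaps NPC2 on the opposite strand, was also lower in GLUP, at 35.7 and 25.0 against 4.44 and 6.59 FPKM, and its part in the value of NPC2 was not tested.

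ASAH1, the acid ceramidase, was at 19.9 and 46.0 FPKM in control and 15.3 and 6.30 in GLUP. The groups did not overlap but both were wide, with control 1 closer to GLUP 1 than to control 2. Its log2 fold change was -1.52 (SE 0.57, limma adjusted p = 0.140), and -2.11 without control 1. ASAH1 was not called with the GC trend removed (-0.72), after centring (-1.18) or after quantile normalization (-1.17). Nor was it called without control 2 (-0.94), without GLUP 2 (-0.95) or, as given above, with every gene above 0 fitted. PPT1, which removes fatty acids from proteins, and LIPA, the acid lipase, had log2 fold changes of -0.27 (SE 0.47) and -0.13 (SE 0.27). LIPA overlaps the interferon-induced IFIT3 on the opposite strand, which was at 130 and 143 FPKM in control and 49.4 and 53.6 in GLUP.

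TFEB, on GRCh37 chr6:41651716-41703997, was at 0.0597 and 0 FPKM in control and 0.140 and 0.143 in GLUP. Both GLUP values were above both control values, far under the level for testing. TFEB acts mainly through its location in the cell, which RNA levels do not measure.

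The proton pump had 14 members, of which 13 were tested, and its sectors differed in their counts of calls without a test between them. Of the 7 tested V1 genes, 3 were lower (42.9%, against 14.5% of all genes tested) and 0 higher (against 4.67%). Among these 3, ATP6V1C1 reached the level for testing through control alone, and none of the 3 was called with the GC trend removed. After centring and after quantile normalization, ATP6V1D alone of the 3 was called (-1.13 and -1.14). ATP6V1C1 was then at -0.80 and -0.96, and ATP6V1G1 at -0.68 and -0.86. The median log2 fold change of the V1 genes was -0.72, against -0.36 for all genes. Of the 4 V0 genes 0 were called, with a median of 0.26, and of the 2 accessory genes 0 were called.

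ATP6V1D, a subunit of the rotor stalk on GRCh37 chr14:67761088-67826982, was at 36.1 and 55.0 FPKM in control and 15.9 and 15.0 in GLUP. Both GLUP libraries were below both control libraries and close to each other. Its log2 fold change was -1.48 (SE 0.35, limma adjusted p = 0.10), and -0.87 with the GC trend removed, and it was called neither there nor without GLUP 1 (-1.52) or GLUP 2 (-1.44). ATP6V1C1, which holds the V1 and V0 sectors together, was at 1.76 and 3.16 FPKM in control and 0.495 and 0.582 in GLUP. Its groups did not overlap, and the log2 fold change was -1.14 (SE 0.29, limma adjusted p = 0.10), -0.42 with the GC trend removed, -0.84 without control 2 and -1.10 without GLUP 1, not called in any of these.

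ATP6V1G1, a peripheral stalk subunit on GRCh37 chr9:117349986-117361195 whose upstream CLEAR motif is printed above, was at 182 and 139.8 FPKM in control and 78.0 and 77.7 in GLUP. The GLUP values were nearly equal and below both control values. The log2 fold change was -1.03 (SE 0.33, limma adjusted p = 0.117), -0.26 with the GC trend removed, -0.84 without control 1, -1.03 without GLUP 1 and -1.02 without GLUP 2, not called in any of these. ATP6V1E1, the partner of ATP6V1G1 in the stalk, and ATP6V1B2, a subunit at the ATP-binding sites, were below control in both GLUP libraries with log2 fold changes of -0.72 (SE 0.32) and -0.45 (SE 0.34), not called. ATP6V1H, a regulatory subunit, was -0.13 (SE 0.26), and ATP6V1A, the catalytic subunit, was under the level for testing with overlapping groups at 0.579 to 1.13 FPKM.

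ATP6V1F, a small subunit of the rotor stalk, went the other way, at 161 and 72.8 FPKM in control and 203 and 228 in GLUP. Both GLUP libraries were higher, and control 2 stood well under the other 3. The log2 fold change was 0.98 (SE 0.46, limma adjusted p = 0.194), and 1.55 and 0.42 without control 1 and control 2, the former called. Thus ATP6V1D and ATP6V1F, both of the rotor stalk, had opposite signs.

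ATP6V0B, a proteolipid of the proton-carrying ring on GRCh37 chr1:44440159-44443967, was at 337 and 27.7 FPKM in control and 613 and 479 in GLUP. Control 2 was far under control 1, so that the fold change rested on which control was read. It was 2.46 on the log2 scale (SE 1.09, limma adjusted p = 0.182), 4.24 without control 1 and 2.64 without GLUP 2, called in both, and 0.68 without control 2. ATP6AP1, an accessory subunit needed for assembly, was likewise at 15.3 and 2.57 FPKM in control and 19.5 and 16.6 in GLUP. Here too control 2 was the low library, and the log2 fold change was 1.31 (SE 0.71, limma adjusted p = 0.243), 2.41 without control 1, where it was called, and 0.22 without control 2.

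ATP6V0E1, a small V0 membrane subunit on GRCh37 chr5:172410774-172462448, was at 513 and 645 FPKM in control and 315 and 339 in GLUP. All GLUP values were below all control values, by less than the 2-fold rule, with a log2 fold change of -0.81 (SE 0.31, limma adjusted p = 0.141) and -0.26 with the GC trend removed. The ring subunit ATP6V0C (-0.04, SE 0.24), ATP6V0D1, which links rotor and ring (0.57, SE 0.70), and the accessory ATP6AP2 (-0.27, SE 0.33) had overlapping groups. For ATP6V0D1, control 2 was at 3.07 FPKM and the other 3 libraries between 11.6 and 17.3, and on the log2 scale the difference was 1.65 when control 1 was left out, where it was called, and -0.52 when control 2 was.

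**Figure D3:**
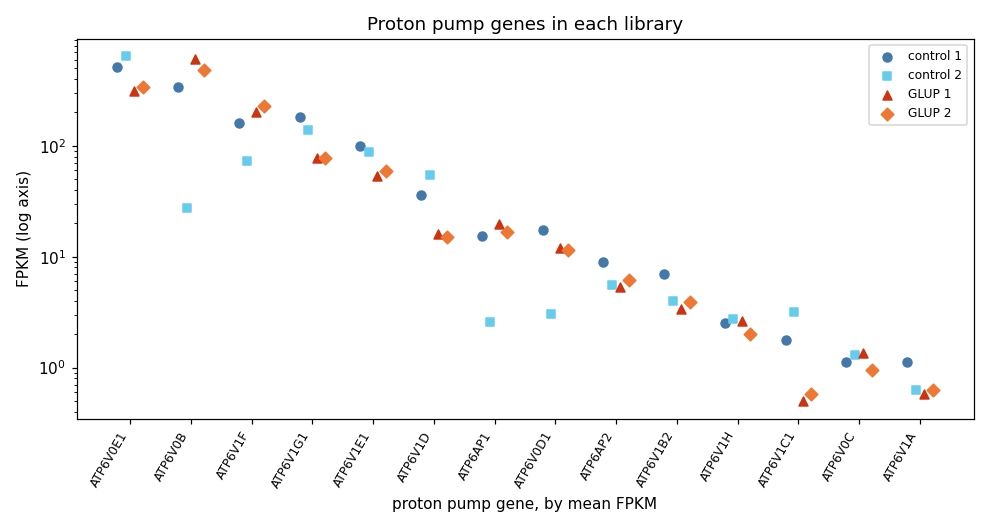
FPKM of the 14 proton pump genes in each library on a log axis, ordered by mean level. ATP6V1D, ATP6V1G1 and ATP6V1C1 have both GLUP points below both control points, and control 2 is the single low point for ATP6V0B, ATP6AP1 and ATP6V0D1.

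Subunits of one pump differed widely in FPKM, which went down with transcript length among the members. Mean FPKM ran from 453 for ATP6V0E1 to 0.740 for ATP6V1A. Neighbours such as ATP6V0E1 and ATP6V0B had overlapping ranges over the 4 libraries, but their order differed by group. In control, ATP6V0B (337 and 27.7 FPKM) was below ATP6V0E1 (513 and 645). In GLUP, ATP6V0B (613 and 479) was above ATP6V0E1 (315 and 339). The summed FPKM of the 14 pump genes was 1385 and 1051 in control and 1322 and 1241 in GLUP, so the groups overlapped. The 24 enzymes and cofactors summed to 458 and 373 in control and 344 and 308 in GLUP, where both GLUP sums were lower. Within these sums the cholesterol carrier NPC2 was at 190.0 and 197 FPKM in control and 91.7 and 85 in GLUP. Of the 20 enzymes and cofactors tested, 12 had a log2 fold change above 0 and 8 below, so the sums do not give the direction of most of them. The 6 membrane proteins summed to 393 and 168 against 691 and 607, where CD63 made up nearly the whole.

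The fold changes of members went with the GC content of their longest transcript. Spearman's rho was 0.77 over the 36 members and 0.58 over 7570 tested genes, the points sharing the same 4 libraries, and 0.36 over the members once the trend was removed. In the 12 members of lowest GC content (36 to 43.8%) the median log2 fold change was -0.62 and 4 were called lower, whereas in the 12 of highest GC content (53.8 to 64.8%) it was 1.03 and 4 were called higher. The 5 lower members lay between 37.3 and 44.3% and the 4 higher between 54.1 and 64.0%. With the trend removed, the medians were 0.12 in the low, 0.21 in the middle and 0.66 in the high group. The part of GC content in the results was not tested beyond this removal.

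**Figure D4:**
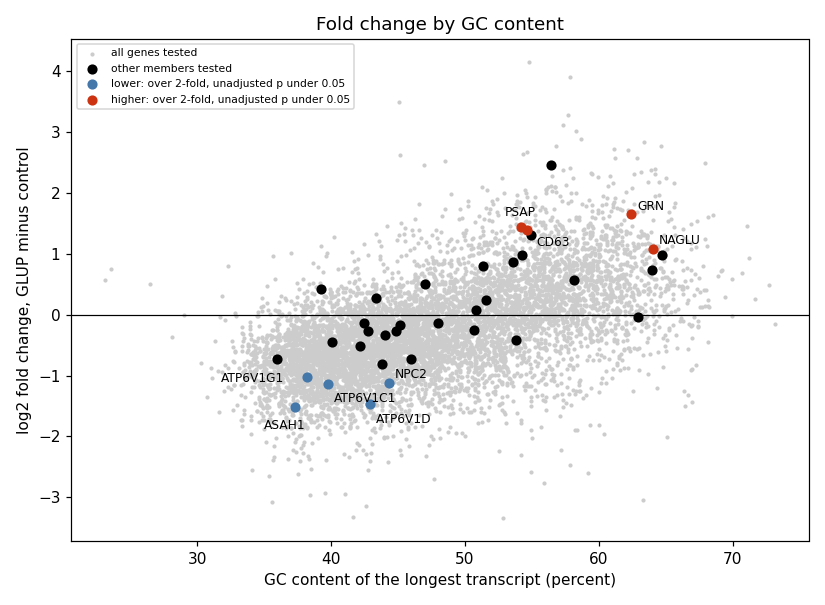
Log2 fold change (GLUP minus control, log2(FPKM + 1) scale) against the GC percent of the longest transcript, for all genes tested (grey) and the lysosomal genes (large points). The 5 called lower lie between 37.3 and 44.3% GC and the 4 called higher between 54.1 and 64.0%.

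The remaining genes of the lysosomal pathway were read from lists made by role. Over all genes tested, 14.5% were called lower and 4.67% higher. Of 30 other hydrolases and cofactors, 14 were tested, 3 were lower (21.4%) and 0 higher. Among the lower were the aspartylglucosaminidase AGA at -1.36 (SE 0.30) and the protease CTSV at -1.24 (SE 0.31). With the GC trend removed, AGA was at -0.65 and CTSV at -0.59. AGA was at 15.3 and 12.9 FPKM in control and 4.57 and 5.22 in GLUP, without overlap. Of 18 other pump genes 6 were tested, 0 were lower and 1 was higher (16.7%), ATP6V0E2, an isoform of ATP6V0E1. It was at 2.39 and 1.01 FPKM in control and 6.62 and 4.60 in GLUP. The log2 fold change was 1.32 (SE 0.36), and 1.78 with the GC trend removed. The isoform thus had the opposite sign to ATP6V0E1, at a far lower level. Of 20 other membrane proteins 9 were tested and 0 were called.

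Of 16 genes that sort enzymes to the lysosome, 8 were tested, 2 were lower (25.0%, against 14.5% of all genes tested) and 0 higher. The lower genes were the retromer subunits VPS26A (-2.02, SE 0.39) and VPS29 (-1.81, SE 0.38). With the GC trend removed, VPS26A was at -1.28 and VPS29 at -1.07. VPS26A was at 6.10 and 12.8 FPKM in control and 1.33 and 1.55 in GLUP. Of 25 genes of nutrient sensing at the lysosome, 17 were tested, 4 were lower (23.5%) and 1 higher (5.88%, against 4.67% of all genes tested). Among them were the GTPase RRAGC (-1.76, SE 0.28), the GATOR1 subunit DEPDC5 (-1.56, SE 0.27) and MLST8, a subunit of the mTOR complexes (1.97, SE 0.68). With the GC trend removed, RRAGC was at -1.23, DEPDC5 at -1.61 and MLST8 at 1.39. Of 24 autophagy genes, 15 were tested, 2 were lower (13.3%, near the share of all genes tested) and 0 higher. The lower genes were the conjugation factor ATG12 (-1.49, SE 0.32) and MAP1LC3B (-1.19, SE 0.31), which marks autophagosomes. With the GC trend removed, ATG12 was at -0.66 and MAP1LC3B at -1.13. The medians of these 3 lists were -0.42, -0.47 and -0.47 on the log2 scale, near the -0.36 of all genes tested, and no gene named in them had a limma adjusted p under 0.10.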

How the data were processed

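Total RNA of HGC-27 cells was sequenced in 2 GLUP and 2 control libraries. The authors deposited FPKM values, 1 per gene and library. The submitters' processing notes name HISAT2, Cufflinks, RSEM and GRCh38.p10, with no versions or roles, whereas the identifiers have the form of GENCODE annotation lifted to GRCh37, from which names, positions, lengths and GC content were taken (99.55% of identifiers matched). Second copies of 49 pseudoautosomal genes were added to the first. Low values showed no whole-read steps.

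Genes whose mean reached 1 FPKM, 7588 in number, were compared on the log2(FPKM + 1) scale in limma 3.58.1 (R 4.3.3), with variances moderated along the mean and Benjamini-Hochberg adjusted p. The GC trend was removed per library with lowess (span 0.3), which left 18 genes without GC content as they were. The main fit and the GC removal were run on simulated data with planted shifts or a planted GC trend. Simulated libraries were independent and of equal spread, unlike the control and GLUP pairs here. The simulation thus checks the code and not the calls. Alternatives tried were another pseudocount (0.1), other filters (any value above 0, or a mean of 5 FPKM), centring, quantile normalization, no trend in the variances, the replicate number as a block, GC removal, and leaving out each library. Members in the top 6 by level or by difference without overlap, with TFEB and MCOLN1, are given in every library, and at most 3 called genes are named from each other list, by size. The values of 1 such gene are not reported here. The members and lists were chosen with earlier results of these data known. P-values measure only the spread between these samples, which may be technical.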

Additional observations from a re-analysis of the deposited data

How the results depend on the processing

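Depth is unknown and each group had 2 libraries, so small differences could not be told from the spread. No member passed an adjusted p of 0.05 in limma under the scaling, filter, GC or block alternatives (10 had an unadjusted p under 0.05), but leaving out single libraries gave 0 to 19, with 19 without control 1, 12 without control 2 and 0 without either GLUP library. With a control left out, the spread comes from the GLUP pair alone, and the lone library is assumed to vary alike. The 5 lower members became 1 after centring, 1 after quantile normalization, 0 with GC removed and 0 with GC removed and the replicate block, and 1 to 4 with a library left out. The 4 higher members became 10, 8, 4 and 6 under the same settings, and 1 to 12 with a library left out (12 without control 1, 1 without control 2, 2 without GLUP 1, 5 without GLUP 2). The number of adjusted-p calls among all genes was 2, with 4038 without control 1 and 1421 without control 2. The split of all genes, 1103 lower and 354 higher, became 428 and 796 after centring, 486 and 673 after quantile normalization and 347 and 355 with GC removed. With a pseudocount of 0.1 it was 1670 and 394, and with a mean of at least 5 FPKM, 704 and 186.

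The median difference from all genes was 0.27 for the members tested, 0.08 for the pump and 0.61 for the enzymes. The pooled SD of this measure between libraries of a group was 0.27, 0.17 and 0.29 in the same order. For the members the difference was 0.10 with all genes above 0 and 0.17 to 0.58 with a library left out. For the pump it was -0.22 with all genes above 0 and -0.23 to 0.24 with a library left out. For the enzymes it was 0.19 with all genes above 0, 0.26 at a mean of at least 5 FPKM and 0.24 to 0.94 with a library left out. The cause of these moves was not tested. Equal replicate numbers share no stated source, and the deviations of same-numbered libraries correlated at 0.126. With the replicate number as a block, 5 members were lower, 6 higher (ATP6AP1 and ATP6V0B added) and 0 had an adjusted p under 0.05, while the calls over all genes went up to 1211 lower and 477 higher. No called member changed direction under the alternatives run, but only centring, quantile normalization and GC removal could have changed one. The groups of the called members did not overlap, so the other alternatives could not reverse their sign.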
